A study of Mus musculus with 18 samples.

Results

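The comparison described here is the response of Zbtb24-deficient splenic B cells to culture with lipopolysaccharide (LPS). It sets 3 libraries of cells stimulated for 24 h against 3 libraries of the same kind of cells at 0 h. No library of the series is of cells cultured without LPS. Effects of LPS and of isolation or time in culture thus cannot be told apart, and the response is the whole change between the time points. Its members are all 15551 genes, of 16545 in the deposited table, that were above 0 FPKM in any of these 6 libraries. FPKM is the number of sequenced fragments of a gene, scaled for the length of its transcript and the size of the library. The series holds 18 libraries of splenic B cells, from 3 control and 3 Zbtb24 B-CKO (B-CKO) replicates at day 0, day 1 and day 2 of culture, here called 0 h, 24 h and 48 h. The B-CKO mice were *Zbtb24* loxp/loxp on a C57BL/6 background with 1 Cre allele, in which the Cre recombinase is made in cells of the B lineage and removes the floxed exon with the start codon of *Zbtb24* there. The control mice (CON in the labels) were, by the study's methods, littermates with the same Cre allele and intact *Zbtb24*, so that both genotypes were meant to carry Cre. Total B cells were purified from spleens with beads or by sorting, and 1 mouse served as 1 replicate. The LPS dose and the sex and age of the mice behind these libraries are not given in the sources used here, and neither is whether cells of 1 number at 0 h and 24 h came from the same mouse.

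LPS is a lipid of the outer membrane of Gram-negative bacteria. B cells sense it through TLR4 with its partner MD-2 and, in B cells, the related pair RP105 and MD-1, and signal through MyD88 and TRIF to NF-κB and to interferon regulatory factors. A resting B cell is small, makes little protein and recirculates between blood and lymphoid tissue. After stimulation it enlarges, builds ribosomes and nucleotides, copies its DNA and divides, and part of its daughters become antibody-secreting plasma cells. ZBTB24 is a zinc finger protein whose loss in people causes a form of the ICF syndrome, an immunodeficiency with centromere instability, and *Cdca7*, another ICF gene, is the best known of the genes it activates.

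The targeted gene was checked first. *Zbtb24* stood at 14.3, 10.5 and 12.6 FPKM in the B-CKO libraries at 0 h and at 49.6, 49.6 and 37.1 FPKM in the control libraries. At 24 h it stood at 11.7, 10.4 and 10.6 FPKM in B-CKO cells and at 18.3, 18.8 and 15.7 FPKM in control cells. Every B-CKO library was thus below every control library of its time point, and the B-CKO mean was 27.5% of the control mean at 0 h (12.5 ± 1.90 against 45.4 ± 7.24 FPKM, SD, n = 3 each) and 62.0% at 24 h (10.9 ± 0.677 against 17.6 ± 1.66 FPKM). The exact permutation test gave p = 0.1 at both time points, the smallest that 3 against 3 libraries allow. In limma over all genes the differences in log2(FPKM + 1) were -1.78 (SE 0.16, adjusted p = 0.12) at 0 h and -0.64 (SE 0.075, adjusted p = 0.0586) at 24 h, and both passed when genes under a mean of 1 FPKM were left out (adjusted p = 0.0476 and 0.00278). The values are of the whole transcript, so transcripts that lack only the floxed exon still count. Within B-CKO cells *Zbtb24* had a log2 change of -0.17 from 0 h to 24 h (adjusted p = 0.258, and 0.0406 with TPM and 0.0485 without replicate 2 of 0 h).

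**Figure D1:**
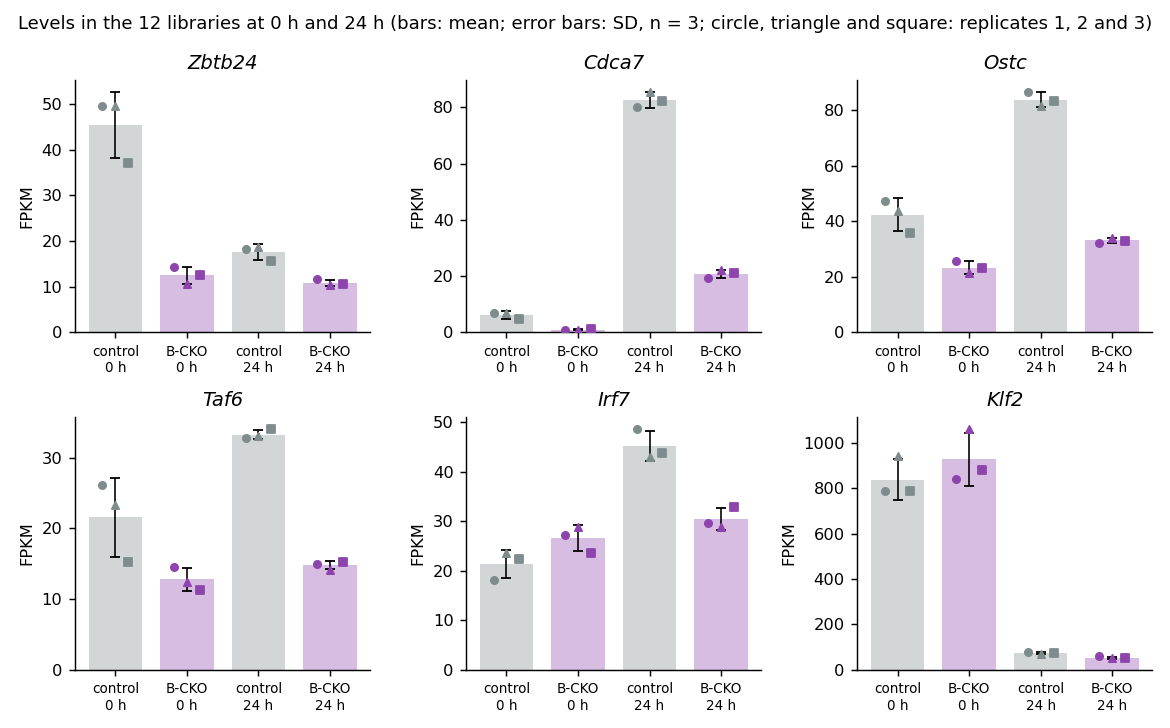
FPKM (vertical axes, linear from 0) of 6 genes in the 12 libraries of control and B-CKO cells at 0 h and 24 h; bars are means of 3 libraries, error bars SD, and the symbols the replicates. *Zbtb24*, *Cdca7*, *Ostc* and *Taf6* lie lower in every B-CKO library than in any control library of the same time point, whereas *Irf7* and *Klf2* do so at 24 h only.

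The cells were B cells by their markers, and markers of other cells were present at low levels at 0 h. *Cd79a*, a chain of the B cell receptor, stood at 2270.4, 1852 and 1988 FPKM at 0 h and at 669.8, 642 and 648 FPKM at 24 h, and *Ms4a1*, which encodes CD20, at 632, 490.3 and 451 FPKM at 0 h and at 488, 478 and 449.6 FPKM at 24 h. Of 9 B cell markers 8 fell at 24 h by the test used throughout (limma on log2(FPKM + 1), Benjamini-Hochberg adjusted p under 0.05), by which 32.3% of all genes fell and 27.5% rose. They include *Cd79a* with a log2 change of -1.63, whereas *Ms4a1* did not pass the test (log2 change -0.14). The libraries are of bulk RNA, in which fewer cells of a type and less RNA per cell cannot be told apart. All 11 T cell markers and all 7 NK cell markers fell, with summed levels over each list of 15.5 to 20.4 and 6.82 to 18.6 FPKM at 0 h and of 3.74 to 4.46 and 0.59 to 0.66 FPKM at 24 h. Of 11 macrophage and monocyte markers 10 fell and *Itgam* rose (summed level 13.5 to 17.1 FPKM at 0 h, 6.74 to 6.91 FPKM at 24 h), and *C1qa*, *C1qb* and *C1qc* were listed at 0 in all 3 libraries of 24 h. None of 8 neutrophil markers passed the test (2 fell without replicate 1 of 0 h), with summed levels of 0.39 to 5.09 FPKM at 0 h and 0 to 0.57 FPKM at 24 h. Of 6 dendritic cell markers 3 fell and *Flt3* rose (summed level 2.52 to 4.61 and 9.66 to 10.2 FPKM), and 1 of 5 platelet markers fell (0.51 to 0.8 and 0.2 to 0.23 FPKM). Among 8 erythroid markers 3 globin genes fell (and 1 marker rose without replicate 3 of 0 h), and *Hbb-bs* was at 7.91, 3.83 and 22.8 FPKM at 0 h and at 0.67, 0 and 0.77 FPKM at 24 h (summed level 11.9 to 71.3 and 7.65 to 12.9 FPKM). For comparison, the 9 B cell markers summed to 4574 to 5941 FPKM at 0 h and 2201 to 2289.8 FPKM at 24 h. The part of the other cells in the results below was not tested.

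The depth in fragments behind each value is not known from FPKM. Low values give the relative depth where they move in steps of what 1 fragment is worth. Such steps fitted 25 of 78 low genes (32.1%), within 3% and rounding, and put the B-CKO libraries at 0.911 to 0.936 at 0 h and at 1.09 to 1.10 at 24 h, relative to the geometric mean over all 12. The libraries of 0 h also varied more. Among B-CKO genes of at least 5 FPKM the median SD of log2(FPKM + 1) was 0.153 at 0 h and 0.0486 at 24 h, and 231 of 7766 genes spanned at least 1 log2 unit between the 3 libraries of 0 h against 6 of 7590 at 24 h. Replicate 1 was the library farthest from the other two in 160 of the 231 genes and the lowest in 108 of them. Genes that cells can induce within minutes of a stimulus are among the 10 with the widest range. *Nr4a3*, a nuclear receptor gene of this kind, stood at 1.22, 17.1 and 35.3 FPKM at 0 h, *Fosl2*, a partner of JUN, at 1.15, 16.6 and 19.9 FPKM, and *Crem*, a cyclic AMP response factor, at 6.21, 35.4 and 59.1 FPKM, each lowest in replicate 1. The heat shock gene *Hsph1*, at 33.6, 77.4 and 9.52 FPKM, was instead lowest in replicate 3.

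**Figure D2:**
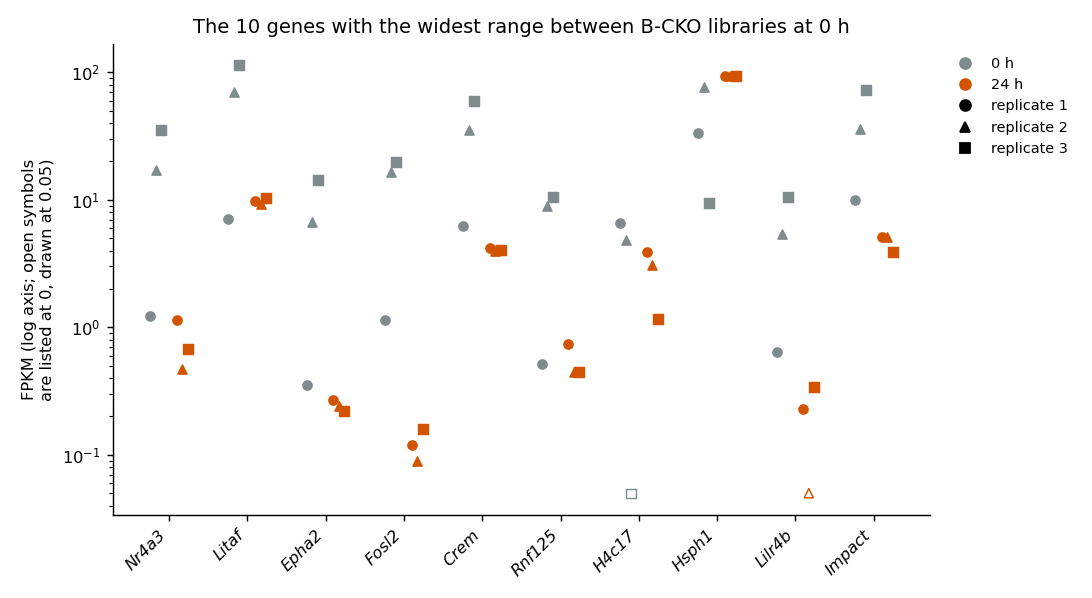
FPKM on a log axis of the 10 genes with the widest range of log2(FPKM + 1) between the 3 B-CKO libraries of 0 h, among genes of at least 5 FPKM in one of them; gray symbols are 0 h and orange symbols 24 h, with a shape for each replicate. *Hsph1* spans 9.52 to 77.4 FPKM at 0 h and lies within 93.6 to 93.9 FPKM at 24 h.

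Over the whole table, the response to 24 h of culture with LPS was broad. Of 15551 genes 4279 (27.5%) rose and 5027 (32.3%) fell at 24 h, so that 59.8% of all genes were called. Among the called genes 1810 rose and 1547 fell by at least 1 log2 unit, 406 rose and 336 fell by at least 2, and 2737 changed by less than 0.5. The median log2 change over all genes was -0.02 and the median size over the called genes 0.77. Of the 6245 genes that did not pass, 3800 were under 1 FPKM on average at both time points. In 29.8% of genes the 3 libraries of 24 h all lay above those of 0 h, and in 35.7% they all lay below. Counts for the gene groups below are to be read against these shares.

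At 0 h the highest levels belonged to antigen presentation and translation. *Cd74*, the invariant chain of MHC class II, led with 10524, 9884 and 10805 FPKM, and *H2-Aa* and *H2-Ab1*, the chains of the I-A molecule, were also among the 10 highest genes, next to the elongation factor gene *Eef1a1*, *Tpt1*, *Tmsb4x* and 4 ribosomal protein genes. At 24 h *Eef1a1* led with 7462, 7566 and 7491 FPKM, and none of the 3 antigen presentation genes was among the 10 highest. Those were now 6 ribosomal protein genes (*Rps2*, *Rplp1*, *Rpl41*, *Rps12* and *Rps23* among them), the chaperone gene *Hsp90ab1*, the prolyl isomerase gene *Ppia* and *Ptma*.

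**Figure D3:**
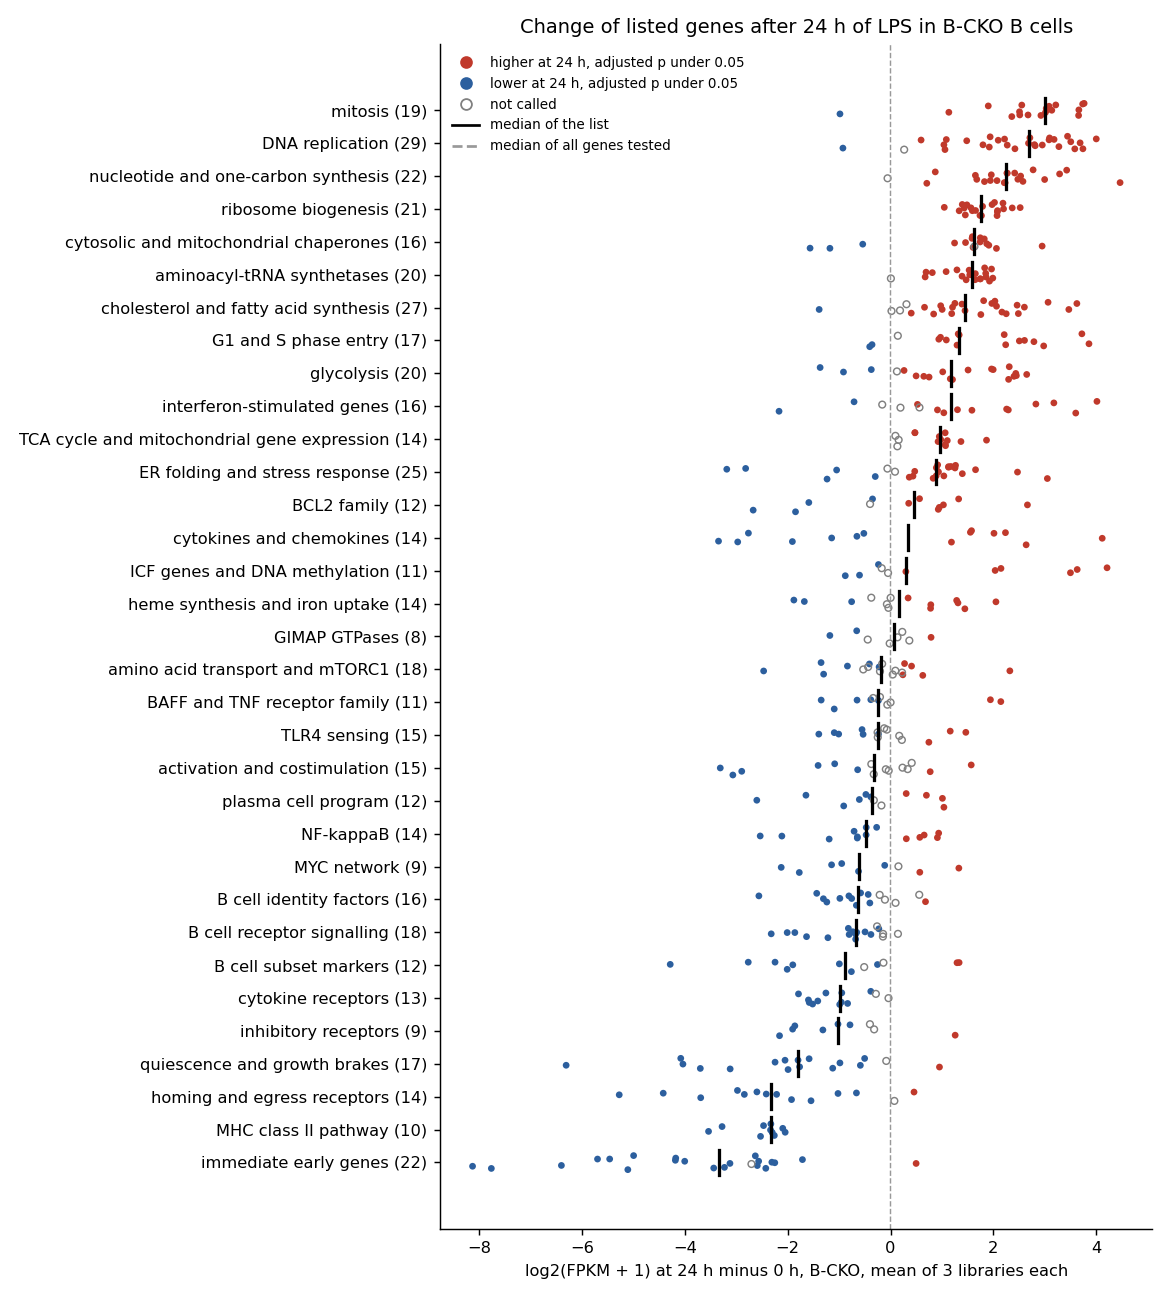
Difference in log2(FPKM + 1) between 24 h and 0 h in B-CKO cells (horizontal axis) for the genes of 33 groups (vertical axis, number of genes tested in parentheses); filled circles passed the test (red higher, blue lower), open circles did not, and short bars are group medians. Mitosis has the highest median (3.01) and immediate early genes have the lowest (-3.34).

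The largest falls were in immediate early genes, which encode transcription factors and phosphatases that cells switch on within minutes and which were high in the cells at 0 h. Of 22 such genes 20 fell and 1 rose, with a median log2 change of -3.34. *Fos*, a subunit of the AP-1 factor, stood at 402, 403 and 344 FPKM at 0 h and at 1.13, 0.79 and 0.43 FPKM at 24 h, a log2 change of -7.77 (SE 0.15, adjusted p = 2.24e-06). *Fosb*, its close relative, stood at 294, 739 and 323 FPKM at 0 h and at 0.5, 0.62 and 0.32 FPKM at 24 h. *Nr4a1*, which reports recent antigen receptor signals, stood at 477, 1223 and 1251 FPKM at 0 h and at 17.1, 15.99 and 15.98 FPKM at 24 h. In all 3 genes the libraries of 24 h were low and close together, while at 0 h *Nr4a1* was lowest in replicate 1 and *Fosb* was highest in replicate 2. *Dusp1*, a phosphatase that switches off MAP kinases, fell by 5.46 on the log2 scale, and the transcription factor genes *Klf4*, *Klf6* and *Egr1* had log2 changes of -6.40, -5.11 and -3.12. *Nr4a3*, which varied most at 0 h, had a log2 change of -2.71 and did not pass (adjusted p = 0.0519). It passed with a pseudocount of 0.1, the 1 FPKM filter (alone or with the replicate block), TPM or group weights (adjusted p = 0.0134 to 0.0374) and without replicate 1 of 0 h (0.000345). *Ier3*, the 1 of the group that rose, had a change of 0.50 that was not called without replicate 3 of 0 h (adjusted p = 0.0504). Of the 15 genes with the largest falls, 7 belong to this group (*Rhob* is the one not yet named). The others include *Plk2*, a polo-like kinase, *Irs2*, an insulin receptor adaptor, and *Rgs1* and *Rgs2*, which shorten G protein signals, at log2 changes of -6.98, -6.82, -5.68 and -5.69.

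Genes that hold lymphocytes at rest fell together. Of 17 genes 15 fell and 1 rose, with a median of -1.80. *Klf2*, a factor that keeps lymphocytes quiescent and recirculating, stood at 839.5, 1061 and 882 FPKM at 0 h and at 58.9, 51.05 and 51.2 FPKM at 24 h, a log2 change of -4.08 (SE 0.11, adjusted p = 2.39e-06). *Tsc22d3*, which encodes the glucocorticoid-induced leucine zipper, stood at 484, 812 and 631 FPKM at 0 h and at 7.59, 6.89 and 6.35 FPKM at 24 h. *Btg1*, an antiproliferative gene, stood at 497, 644 and 689.8 FPKM at 0 h and at 37.6, 35.3 and 34.6 FPKM at 24 h. No library of 24 h overlapped those of 0 h in these genes, and the mean of *Klf2* was 17.3-fold lower at 24 h. *Pik3ip1*, an inhibitor of PI3-kinase, fell by 3.70 on the log2 scale, *Txnip*, a brake on glucose uptake, by 3.12, *Foxo1* by 1.99 and *Cdkn1b*, the cell cycle inhibitor p27, by 1.77. *Cdkn2c*, another inhibitor of this kind, rose by 0.95.

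Receptors for homing and egress were also lower. Of 14 genes 12 fell and *Itgal* rose (2 rose without replicate 2 of 0 h), with a median of -2.32. *Cxcr4*, which holds cells in bone marrow and the germinal centre dark zone, stood at 229, 365 and 395 FPKM at 0 h and at 7.43, 7.31 and 7.14 FPKM at 24 h. *S1pr1*, the sphingosine-1-phosphate receptor through which lymphocytes leave lymphoid organs, stood at 145, 160.4 and 185 FPKM at 0 h and at 7.0, 6.13 and 6.84 FPKM at 24 h. The libraries of 24 h were 3 tight values in each case, and the means were 45.2-fold and 24.6-fold lower. *Ccr7*, for T zone entry, fell by 2.98 on the log2 scale, *Gpr183*, an oxysterol receptor, by 2.60, *Itgb7* by 3.69 and *Cnr2*, which retains marginal zone B cells, by 2.84. *Cxcr5*, for follicle entry, did not pass (except without replicate 2 of 0 h, adjusted p = 0.0118) and stood at 119, 159.9 and 114 FPKM at 0 h and at 140.4, 135 and 134 FPKM at 24 h.

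All 10 genes of the MHC class II pathway fell, with a median of -2.33. *Cd74* went from the values above to 2432, 2362 and 2498 FPKM, a mean 4.28-fold lower. *H2-Aa* stood at 3173, 2916 and 3729 FPKM at 0 h and at 646, 656 and 676 FPKM at 24 h. *Ciita*, the transactivator that the pathway depends on, fell by 2.26 on the log2 scale. No library of 24 h overlapped those of 0 h in these 3 genes. *H2-Ob* and *H2-Oa*, which form the inhibitor of peptide loading DO, had the largest falls of the group (log2 changes of -3.54 and -3.28), and *H2-DMa*, a chain of the loading catalyst DM, fell by 2.33. Of the 10 genes 7 had a promoter in the RefSeq set, and CCAAT on either strand, the letters at the core of the Y box that MHC class II promoters share, was present in all 7. Over all promoters, each counted singly, the share was 33.8%. Here and below a gene of a group counts once, with a match in any of its promoters, so these shares are not of the same unit. The promoter of *H2-Aa*, which is the highest of these genes after *Cd74* at 0 h, is given with the match in capitals (here ATTGG, the other strand), as the 250 bases before the transcription start in RefSeq on GRCm38.p6, chr17:34287824-34288073, minus strand, written 5′ to 3′ along the gene.
H2-Aa: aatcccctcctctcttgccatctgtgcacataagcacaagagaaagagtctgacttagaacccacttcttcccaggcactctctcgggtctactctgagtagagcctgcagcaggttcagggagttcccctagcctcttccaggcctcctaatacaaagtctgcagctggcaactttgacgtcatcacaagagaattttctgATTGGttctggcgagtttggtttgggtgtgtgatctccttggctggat

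Most components of the B cell receptor pathway were lower. Of 18 genes 14 fell and none rose, with a median of -0.68. *Cd79a*, a signalling chain, fell by 1.63 on the log2 scale and its partner *Cd79b* by 0.66, a call that was lost without any 1 library of 24 h (adjusted p up to 0.0797). *Blk*, a SRC family kinase gene, fell by 2.32, and *Malt1*, a protease of the route to NF-κB, by 1.86. The kinase genes *Syk* and *Btk* fell by 0.68 and 0.50. *Blnk*, the adaptor between them, did not pass (log2 change -0.15), nor did *Vav1* (-0.15), but both passed as falls without replicate 3 of 0 h (adjusted p = 0.0212 and 0.00877), with TPM (0.00291 and 0.00431) and with median-ratio scaling (0.0238 and 0.0189), and *Blnk* also in 1 fit of 12 libraries (0.0431). Among 9 inhibitory receptors and their phosphatase 6 fell, such as *Siglecg* (2.16 on the log2 scale) and *Cd22* (1.32), whereas *Fcgr2b*, the inhibitory receptor for IgG, rose from 88.01, 77.1 and 66.9 to 179, 181 and 196 FPKM. Of 12 markers of B cell subsets 8 fell and 2 rose. *Cd55*, which shields cells from complement, fell by 4.29 on the log2 scale, *Fcer2a* (CD23, a marker of follicular B cells) by 2.25, *Cr2* (CD21) by 2.01 and *Cd1d1*, high on marginal zone B cells, by 2.77. *Cd24a* rose from 419.9, 329 and 342 to 915, 877 and 946 FPKM, and *Fcrl5* rose by 1.29.

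Transcription factors of B cell identity fell in 11 of 16 cases and rose in 1 (in 2 without replicate 1 of 0 h), with a median of -0.62. *Ets1*, which restrains plasma cell formation, stood at 232, 292 and 336 FPKM at 0 h and at 46.3, 46.6 and 48.7 FPKM at 24 h. *Bach2* and *Bcl6*, both repressors of *Prdm1*, fell by 0.76 and 1.44 on the log2 scale, *Ebf1* by 1.31, and *Pax5*, which maintains B cell identity, by 0.67. *Pou2f2*, which encodes OCT-2, rose by 0.68. Of 12 genes of the plasma cell program 4 rose and 6 fell. *Prdm1*, which encodes the plasma cell regulator BLIMP1, stood at 1.41, 3.44 and 3.10 FPKM at 0 h and at 6.17, 5.87 and 6.26 FPKM at 24 h. *Xbp1*, the driver of secretory expansion, stood at 46.8, 41.99 and 35.8 FPKM at 0 h and at 52.9, 50.7 and 50.1 FPKM at 24 h. *Prdm1* rose by 1.01 on the log2 scale from low levels (adjusted p = 0.00974), and *Xbp1* by 0.30 (adjusted p = 0.0352), a call that was lost without replicate 2 of 0 h or any 1 library of 24 h (adjusted p up to 0.111) and with values rescaled to TPM (adjusted p = 0.273). *Irf4*, needed at high dose for plasma cells, fell from 119, 254 and 266 to 62.7, 67.3 and 60.5 FPKM, with the lowest library of 0 h in replicate 1. *Jchain*, which joins polymeric antibody, fell by 2.60, and *Sdc1*, which encodes the plasma cell marker CD138, by 0.91.

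**Figure D4:**
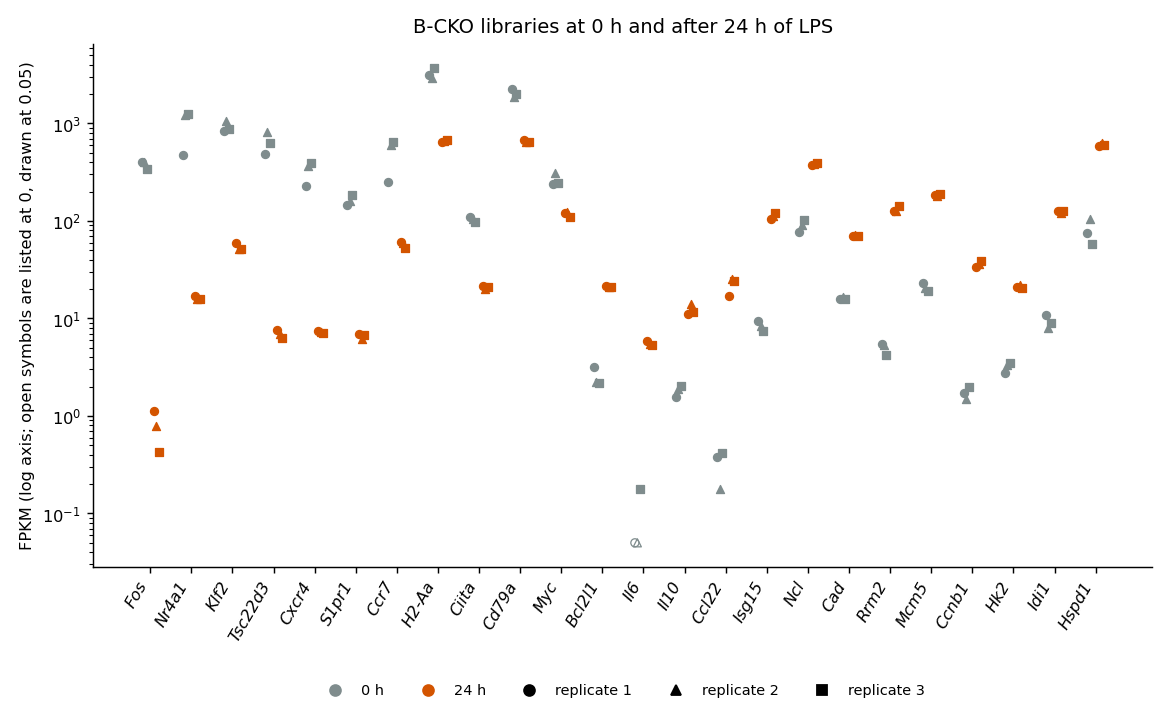
FPKM on a log axis of 24 genes of the groups described, in the 3 B-CKO libraries of 0 h (gray) and of 24 h (orange), with a shape for each replicate. In none of these genes do the libraries of the 2 time points overlap, with *Fos* at 344 to 403 FPKM against 0.43 to 1.13 FPKM and *Rrm2* at 4.19 to 5.52 FPKM against 126 to 142 FPKM.

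Of the sensing machinery itself, *Tlr4* was low, at 3.13, 1.47 and 0.82 FPKM at 0 h and at 2.26, 2.0 and 2.0 FPKM at 24 h, and *Ly96*, which encodes MD-2, stood at 2.93, 3.49 and 3.22 FPKM at 0 h and at 3.46, 3.84 and 3.90 FPKM at 24 h. The related pair was higher, with *Cd180* (RP105) at 147, 133 and 201 FPKM at 0 h and at 77.97, 77.9 and 77.95 FPKM at 24 h and *Ly86* (MD-1) at 196, 201 and 172 FPKM at 0 h and at 171, 176 and 175 FPKM at 24 h. Of these 4 genes *Cd180* passed the test, with a log2 change of -1.01. The others did not, although *Tlr4* passed as a rise without replicate 1 of 0 h (0.54, adjusted p = 0.0243) and *Ly86* as a fall without replicate 3 of 0 h (-0.19, adjusted p = 0.00987) and with TPM (-0.29, adjusted p = 0.0146). *Cd14*, the co-receptor of myeloid cells, was at most 0.15 FPKM in any library. Of 15 genes of TLR4 sensing 3 rose and 6 fell. The 3 that rose were the adaptors *Myd88* (0.75 on the log2 scale), *Ticam1* (TRIF, 1.16) and *Ticam2* (TRAM, 1.46), while *Irak2*, *Irak3*, *Traf6* and the deubiquitinase gene *Tnfaip3* (A20) were among those that fell, by 1.10, 0.55, 0.53 and 1.40. All 14 NF-κB genes passed, 5 rising and 9 falling. *Nfkb1*, the precursor of p50, rose from 98.8, 97.98 and 89.5 to 152, 152 and 147 FPKM, and *Nfkbia*, *Nfkbiz* and *Bcl3*, inhibitors and cofactors induced by the pathway, rose by 0.57, 0.91 and 0.94. *Rela*, *Relb* and *Rel* fell by 0.65, 0.47 and 2.11, with *Rel* at 49.9 FPKM in replicate 1 and at 140.1 and 167 FPKM in the other libraries of 0 h.

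Cytokine genes moved in both directions, 7 of 14 each way. *Il6*, an inflammatory cytokine, was listed at 0, 0 and 0.18 FPKM at 0 h and stood at 5.93, 5.47 and 5.34 FPKM at 24 h. *Il10*, an anti-inflammatory cytokine of B cells, stood at 1.55, 1.91 and 2.03 FPKM at 0 h and at 11.2, 14.2 and 11.7 FPKM at 24 h. *Ccl22*, a chemokine that draws regulatory and helper T cells, stood at 0.38, 0.18 and 0.42 FPKM at 0 h and at 17.03, 25.4 and 24.4 FPKM at 24 h and was among the 15 largest rises. Every library of 24 h was higher in these 3 genes. *Tnf* rose by 1.57 on the log2 scale, *Cxcl10* by 2.01, *Ccl5* by 1.55 and *Ebi3*, a subunit of IL-27 and IL-35, by 1.18. *Ltb*, which shapes lymphoid tissue, fell from 519.8, 325 and 275 to 38.4, 34.3 and 30.99 FPKM, and *Lta*, *Ccl3*, *Ccl4* and *Tgfb1* fell by 1.91, 2.77, 2.97 and 1.15. Of 13 cytokine receptor genes 11 fell and none rose, among them *Il4ra* (1.79 on the log2 scale), *Ifngr1* (1.42), *Ifnar1* (1.26) and *Il5ra* (1.60). Of 15 activation and costimulation genes 2 rose, *Il2ra* (CD25, 1.57) and *Cd44* (0.77), and 6 fell, among them the early activation marker *Cd69* (-3.07) and the ligand genes *Icosl* (-2.89) and *Cd274* (PD-L1, -3.31). *Cd86*, a ligand of CD28, was at 12.2, 16.5 and 22.4 FPKM at 0 h and 12.5, 13.4 and 13.1 FPKM at 24 h and did not pass, except without replicate 1 of 0 h (adjusted p = 0.0173). *Cd40* had a log2 change of 0.41 just short of the threshold (adjusted p = 0.0521), and passed without replicate 1 of 0 h (0.000657), with the replicate block (0.0313) and with a pseudocount of 0.1, the 1 FPKM filter, median-ratio scaling or group weights (0.0295 to 0.0461). It did not pass with TPM (0.188) or in 1 fit of 12 libraries. *Cd80*, at 0.33, did not pass (adjusted p = 0.101) except with the block (0.037). In the BAFF and TNF receptor family 2 of 11 genes rose, *Tnfrsf13b* (TACI, from 60.3, 36.3 and 47.3 to 187, 189 and 174 FPKM) and *Traf1* (2.14), and 5 fell. *Tnfrsf13c*, the BAFF receptor, did not pass, with 204, 118 and 85.2 FPKM at 0 h.

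Interferon-stimulated genes rose in 11 of 16 cases and fell in 2, with a median of 1.17. *Isg15*, a ubiquitin-like modifier, stood at 9.37, 8.34 and 7.46 FPKM at 0 h and at 105, 113 and 119.7 FPKM at 24 h, a log2 change of 3.60 (SE 0.092, adjusted p = 2.37e-06). *Ifit1*, which binds foreign RNA, stood at 1.98, 0.76 and 0.7 FPKM at 0 h and at 30.5, 33.05 and 34.1 FPKM at 24 h, and *Ifih1*, the RNA sensor MDA5, at 1.29, 1.06 and 0.78 FPKM at 0 h and at 16.7, 17.1 and 18.3 FPKM at 24 h. All libraries of 24 h were higher in these genes, and *Oasl1*, *Gbp2* and *Usp18* rose by 2.83, 2.26 and 2.29. The factors upstream moved less or the other way. *Irf1* fell by 2.17 on the log2 scale and *Stat2* by 0.71, whereas *Irf7* (27.2, 28.9 and 23.7 FPKM at 0 h, 29.6, 28.9 and 32.9 FPKM at 24 h) and *Irf9* did not pass (*Irf9* passed as a fall with TPM, adjusted p = 0.0154, with median-ratio scaling, 0.0307, and without replicate 3 of 0 h, 0.0215). Of the 16 genes 13 had a promoter in the RefSeq set, and 5 of these 13 (38.5%) held 2 copies of GAAACN in a row on either strand, a spelling of the interferon-stimulated response element, against 0.161% of all promoters. The promoters of the pair with the largest rises in the group are given with the match in capitals, as the 250 bases before the start on GRCm38.p6, *Isg15* at chr4:156200819-156201068 on the minus strand and *Ifit1* at chr19:34640639-34640888 on the plus strand, where the match reads on the other strand.
Isg15: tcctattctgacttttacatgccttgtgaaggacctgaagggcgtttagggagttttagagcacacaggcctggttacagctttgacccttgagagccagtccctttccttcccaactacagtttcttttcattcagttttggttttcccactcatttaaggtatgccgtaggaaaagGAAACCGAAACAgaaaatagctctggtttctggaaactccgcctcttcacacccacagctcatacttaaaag
Ifit1: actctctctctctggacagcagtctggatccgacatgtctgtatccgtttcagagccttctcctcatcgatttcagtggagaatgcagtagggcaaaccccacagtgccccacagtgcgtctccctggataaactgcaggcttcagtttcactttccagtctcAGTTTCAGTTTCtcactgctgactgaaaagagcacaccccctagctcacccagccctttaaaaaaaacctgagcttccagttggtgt

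Genes for building ribosomes and for charging tRNA rose nearly throughout. All 21 ribosome biogenesis genes rose, with a median of 1.77. *Npm1*, the nucleolar chaperone nucleophosmin, stood at 408, 430.1 and 478 FPKM at 0 h and at 1989.8, 2059 and 1989 FPKM at 24 h, a mean 4.59-fold higher. *Ncl*, which encodes nucleolin, stood at 77.2, 90.8 and 103 FPKM at 0 h and at 371, 387 and 389.6 FPKM at 24 h, and *Nop16* had the largest rise of the group (2.52 on the log2 scale). *Polr1a* and *Polr1b*, the large subunits of RNA polymerase I, rose by 1.43 and 1.45. Of 20 cytosolic aminoacyl-tRNA synthetase genes 19 rose, with a median of 1.59, from *Qars* (0.67) to *Aars* (1.99). *Vars* was the exception, at 201, 227 and 199 FPKM at 0 h and at 213, 202 and 214 FPKM at 24 h. Ribosomal protein genes are in neither group, and the 4 among the 10 highest genes of 0 h did not move as one. *Rplp1* rose by 0.60 on the log2 scale and *Rps27* fell by 0.96, while *Rpl13a* (-0.14) and *Rps9* (0.08) did not pass (*Rpl13a* passed as a fall with TPM, adjusted p = 0.00944, and with the 1 FPKM filter, 0.0451, and with TPM the change of *Rps9* was -0.0839). *Myc*, the factor that many of these genes respond to, was itself lower, at 237, 312 and 244 FPKM at 0 h and at 122, 123 and 109 FPKM at 24 h, a log2 change of -1.15 (SE 0.12, adjusted p = 0.000223). Its antagonists *Mxd1* and *Mnt* fell by 2.13 and 1.78. Of 9 genes of the MYC network 6 fell.

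Genes of amino acid supply were called about as often as all genes. Of 18 transport and mTORC1 genes 5 rose (27.8%, beside 27.5% of all genes) and 6 fell (33.3%, beside 32.3%). Only 2 or 3 rose when any 1 library of 24 h was left out. *Slc7a5*, the light chain of the CD98 leucine transporter, stood at 13.6, 17.9 and 19.9 FPKM at 0 h and at 89.3, 91.1 and 85.5 FPKM at 24 h, a mean 5.17-fold higher, whereas its heavy chain *Slc3a2* stood at 72.5, 87.6 and 116 FPKM at 0 h and at 77.4, 80.3 and 77.1 FPKM at 24 h and did not pass (adjusted p = 0.323, and 0.049 without replicate 1 of 0 h). *Sesn1* and *Sesn3*, inhibitors of mTORC1 signalling, fell by 2.47 and 1.30 on the log2 scale.

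Nucleotide and one-carbon synthesis rose in 21 of 22 genes, with a median of 2.25. *Rrm2*, the regulated subunit of ribonucleotide reductase, had the largest rise of all genes that met the naming rule and stood at 5.52, 5.39 and 4.19 FPKM at 0 h and at 126, 127 and 142 FPKM at 24 h, a log2 change of 4.46 (SE 0.11, adjusted p = 2.24e-06). *Cad*, the enzyme that starts pyrimidine synthesis, stood at 15.7, 16.6 and 15.9 FPKM at 0 h and at 70.4, 71.2 and 70.5 FPKM at 24 h. *Shmt1* and *Mthfd2*, enzymes of one-carbon transfer, rose by 3.43 and 3.29 on the log2 scale, and *Ctps* by 2.58. The spread between libraries was small beside these changes, and every library of 24 h lay above every library of 0 h in each of them.

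Energy and lipid genes followed. Of 20 glycolysis genes 16 rose and 3 fell, with a median of 1.18 (1 fell without replicate 2 of 0 h or without replicate 1 or 2 of 24 h). *Hk2*, the inducible hexokinase, stood at 2.74, 3.37 and 3.51 FPKM at 0 h and at 20.8, 22.01 and 20.6 FPKM at 24 h, *Ldha*, the lactate dehydrogenase chain, at 126, 123 and 122 FPKM at 0 h and at 649, 653 and 719 FPKM at 24 h, and *Slc16a1*, the lactate transporter MCT1, rose by 2.65 on the log2 scale. The glucose transporter gene *Slc2a3* went the other way and fell by 1.37. Of 14 genes of the TCA cycle and mitochondrial gene expression 11 rose and none fell, with a median of 0.96, led by *Idh3a* (1.87) and *Mdh2* (1.37). Cholesterol and fatty acid synthesis rose in 23 of 27 genes and fell in 1, with a median of 1.45. *Idi1*, which isomerizes the isoprenoid unit, stood at 10.8, 7.97 and 9.02 FPKM at 0 h and at 127, 122 and 126 FPKM at 24 h, and *Fdps*, the farnesyl diphosphate synthase, at 18.7, 11.7 and 9.87 FPKM at 0 h and at 155, 144 and 162 FPKM at 24 h. *Sqle*, which oxidizes squalene, rose by 3.06 and *Hmgcs1* by 2.49. *Scd1*, a desaturase, fell from 329, 435 and 490.1 to 163, 142 and 168 FPKM, and the regulator *Srebf1* did not pass (0.18).

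The highest group medians were those of mitosis and DNA replication. Of 17 genes of G1 and S phase entry 14 rose and 2 fell. *Ccnd2*, the D cyclin of B cells, stood at 16.02, 17.99 and 12.7 FPKM at 0 h and at 219, 214 and 215 FPKM at 24 h, a mean 13.9-fold higher, *Ccne1* rose by 2.79 on the log2 scale and *E2f1* by 2.61. Of 29 DNA replication genes 27 rose and 1 fell, with a median of 2.68. *Mcm5*, a subunit of the replicative helicase, stood at 22.9, 20.6 and 18.9 FPKM at 0 h and at 184, 182 and 187 FPKM at 24 h, and *Mcm10*, which helps to fire origins, at 1.01, 1.21 and 0.8 FPKM at 0 h and at 29.2, 30.6 and 33.4 FPKM at 24 h. *Pcna*, the sliding clamp, was already at 159, 146 and 152 FPKM at 0 h and reached 550.1, 579.6 and 632 FPKM. *Cdt1*, which licenses origins, fell from 54.99, 95.05 and 122 to 43.8, 44.6 and 46.3 FPKM, a call that was lost when any 1 library was left out except replicate 1 of 0 h (adjusted p up to 0.0851). Of 19 mitosis genes 18 rose and 1 fell, with a median of 3.01. *Ccnb1*, the mitotic cyclin, stood at 1.73, 1.51 and 1.99 FPKM at 0 h and at 33.8, 36.3 and 38.7 FPKM at 24 h, *Cdk1*, its kinase, at 1.11, 0.7 and 1.09 FPKM at 0 h and at 23.2, 25.4 and 26.8 FPKM at 24 h, and *Mki67*, which encodes the proliferation marker Ki-67, at 4.95, 4.04 and 4.09 FPKM at 0 h and at 29.9, 34.03 and 35.7 FPKM at 24 h. *Cenpa*, the centromere histone, was the 1 that fell, from 25.2, 41.1 and 64.3 to 18.5, 20.3 and 21.3 FPKM, and this call was lost without replicate 2 of 0 h or any 1 library of 24 h (adjusted p up to 0.0949) and in 1 fit of 12 libraries (0.0678).

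The 15 largest rises were mostly of such genes. Next to *Rrm2*, *Uhrf1*, *Mcm10*, *Ccnb1*, *Cdk1* and *Ccnd2* they include *Pclaf*, a partner of PCNA, at 6.51, 6.12 and 6.03 FPKM at 0 h and at 129, 135 and 151 FPKM at 24 h, *Mybl2*, a factor that drives late cell cycle genes, at 2.52, 2.28 and 3.02 FPKM at 0 h and at 59.3, 63.2 and 67.4 FPKM at 24 h, and *Ccna2*, a cyclin of S phase and mitosis, at 2.86, 2.44 and 2.66 FPKM at 0 h and at 48.8, 51.3 and 56.2 FPKM at 24 h. *Gins2*, of the replicative helicase, and *Cenpm*, of the centromere, rose by 3.74 and 3.75 on the log2 scale. The other 4 were *Ccl22*, *Ifit1* and a pair of transcription factor genes, *Batf*, an AP-1 family member needed for class switching, at 13.2, 9.63 and 8.84 FPKM at 0 h and at 202, 185 and 203 FPKM at 24 h, and *Zbtb32*, a repressor of the same protein family as ZBTB24, at 7.60, 3.58 and 4.93 FPKM at 0 h and at 100.4, 118 and 112 FPKM at 24 h. No library of 24 h overlapped those of 0 h in these 15 genes, as the rule that names them requires.

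Promoters of the replication and mitosis genes are shown because the members of both groups rose almost together. TTTCGCGC on either strand, a spelling of the E2F site, lay in the 250 bases before the start of 4 of the 23 replication genes with a promoter in the set (17.4%) and of 0.256% of all 32851 promoters. CCAAT on either strand lay before the start of 14 of 17 mitosis genes (82.4%), of 16 of 19 genes of cholesterol and fatty acid synthesis (84.2%) and of 17 of 21 genes of ER folding (81.0%). Its share over all promoters was 33.8%. The group shares count genes, with a match in any of their promoters, and the shares over all promoters count promoters. All lists were searched, and the groups named were picked from them. The E2F letters also lay before 2 of 11 genes of the ICF and DNA methylation group (18.2%), and CCAAT before 5 of 6 erythroid markers (83.3%). The spellings were chosen after the values were seen, and a match is a string of letters and not a measured site. The examples are *Mcm5* (E2F letters in capitals, chr8:75109259-75109508, plus strand) and *Ccnb1* (CCAAT in capitals, chr13:100786487-100786736, minus strand), both on GRCm38.p6.
Mcm5: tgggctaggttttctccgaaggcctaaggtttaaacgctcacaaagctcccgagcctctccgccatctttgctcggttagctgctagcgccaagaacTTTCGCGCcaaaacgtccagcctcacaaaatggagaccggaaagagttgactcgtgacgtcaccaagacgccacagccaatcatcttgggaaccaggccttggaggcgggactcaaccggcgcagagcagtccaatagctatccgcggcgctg
Ccnb1: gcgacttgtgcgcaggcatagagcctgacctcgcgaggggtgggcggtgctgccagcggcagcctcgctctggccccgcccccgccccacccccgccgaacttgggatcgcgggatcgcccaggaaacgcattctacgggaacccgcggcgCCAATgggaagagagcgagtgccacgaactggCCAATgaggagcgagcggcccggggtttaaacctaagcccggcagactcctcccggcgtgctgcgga

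Most genes of protein folding rose. Of 25 genes of ER folding and stress response 18 rose and 5 fell, with a median of 0.89. *Asns*, asparagine synthetase, rose by 3.05 on the log2 scale and *Sdf2l1*, an ER chaperone cofactor, by 2.47. *Hspa5*, which encodes the central ER chaperone BiP, stood at 396, 469 and 406 FPKM at 0 h and at 551, 533 and 548 FPKM at 24 h, a log2 change of 0.36 (adjusted p = 0.00675, and 0.0908 with values rescaled to TPM). The 5 genes that fell include the transcription factor genes *Ddit3* (CHOP), which stood at 54.9, 95.8 and 113 FPKM at 0 h and at 8.04, 8.13 and 8.93 FPKM at 24 h, and *Atf4*, which fell by 1.24. Of 16 cytosolic and mitochondrial chaperone genes 12 rose and 3 fell. *Hspd1*, which encodes the mitochondrial HSP60, stood at 75.1, 106 and 58.2 FPKM at 0 h and at 586, 626 and 599 FPKM at 24 h, and *Hspe1*, its partner, rose by 2.06. The libraries of 0 h differed among themselves in the heat shock genes, as in *Hspa8* (812, 1293 and 541 FPKM) and *Dnaja1* (56.8, 77.4 and 28.3 FPKM), with replicate 3 lowest and replicate 2 highest in both.

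Among 14 genes of heme synthesis and iron uptake 7 rose and 3 fell. *Alas1*, the first enzyme of the path, stood at 8.12, 4.81 and 6.56 FPKM at 0 h and at 16.8, 17.9 and 17.2 FPKM at 24 h, and *Cpox* and *Tfrc*, the transferrin receptor, rose by 1.45 and 1.29 on the log2 scale. *Slc25a37*, the mitochondrial iron importer mitoferrin, fell by 1.88 and *Bach1*, a heme-sensing repressor, by 1.68. In the BCL2 family 7 of 12 genes rose and 4 fell. *Bcl2l1*, which encodes the survival protein BCL-XL, stood at 3.15, 2.25 and 2.17 FPKM at 0 h and at 21.7, 20.8 and 20.9 FPKM at 24 h, whereas *Bcl2* fell by 0.35. *Pmaip1* (NOXA), *Bmf* and *Bcl2l11* (BIM), which promote cell death, fell by 2.67, 1.85 and 1.59, and *Bax*, *Bak1* and *Bid*, which do so too, rose by 0.93, 1.03 and 1.32.

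The ICF genes and the DNA methylation machinery bear on the deleted gene. Of 11 such genes 6 rose and 3 fell. *Uhrf1*, which brings DNMT1 to newly copied DNA, stood at 7.36, 7.57 and 6.14 FPKM at 0 h and at 143, 143 and 156 FPKM at 24 h, and *Dnmt1*, the maintenance methyltransferase, at 25.9, 22.4 and 20.4 FPKM at 0 h and at 92.9, 95.2 and 101 FPKM at 24 h. *Hells*, the chromatin remodeller that CDCA7 recruits and itself an ICF gene, stood at 4.40, 4.14 and 4.17 FPKM at 0 h and at 60.5, 65.5 and 65.7 FPKM at 24 h. The log2 changes of these 3 genes were 4.21, 2.03 and 3.63, and *Dnmt3b*, the first ICF gene known, had a change of 0.30 (adjusted p = 0.0287) whose call was lost without any 1 library of 24 h (adjusted p up to 0.11). It was also lost with TPM (adjusted p = 0.182), median-ratio scaling (0.057), group weights (0.0735) and the replicate number as a block (0.0822). *Tet2* and *Tet3*, which oxidize methylcytosine, fell by 0.60 and 0.88, and *Dnmt3a* did not pass (-0.05).

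Of 5 genes reported as targets of ZBTB24 2 rose (*Cdca7* and *Ostc*) and 1 fell (*Rnf169*), with a median of 0.20, beside 0.64 in control cells. *Cdca7* rose from 0.93, 0.82 and 1.05 FPKM to 19.3, 22.1 and 21.2 FPKM in B-CKO cells, a log2 change of 3.50 (SE 0.096, adjusted p = 2.58e-06), beside 3.56 in control cells (difference -0.06, SE 0.17, unadjusted p = 0.753, and 0.61 with a pseudocount of 0.1). Its level stayed low against control, at 15.1% of the control mean at 0 h and 25.3% at 24 h (limma adjusted p = 0.12 and 3.56e-05). *Ostc*, a subunit of oligosaccharyltransferase, stood at 25.7, 21.2 and 23.2 FPKM at 0 h and at 32.2, 34.1 and 33.1 FPKM at 24 h, 55.1% and 39.5% of control at the 2 time points, with log2 changes of 0.49 in B-CKO and 0.98 in control cells (difference -0.49, unadjusted p = 0.00487). *Taf6*, a subunit of TFIID, stood at 14.6, 12.4 and 11.3 FPKM at 0 h and at 14.98, 14.1 and 15.3 FPKM at 24 h, 59.3% and 44.5% of control, with changes of 0.20 and 0.64 (unadjusted p = 0.0832 for the difference). *Cdc40*, a splicing factor gene, was at 59.2% and 61.1% of control and had changes of 0.18 and 0.15. *Rnf169*, a ubiquitin ligase gene, was at 105% and 94.6% of control and fell by 0.91 in B-CKO cells, with a change of -0.80 in control cells. None of these differences between the responses passed after adjustment over all genes.

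The genes reported as ZBTB24 targets were compared for the letters CAGGACCT, the core of the reported ZBTB24 motif, on either strand. The letters lay in the 250 bases before the start in 3 of the 4 such genes with a promoter in the set (*Cdca7*, *Taf6* and *Cdc40*, not *Rnf169*) and in 1.63% of all promoters. Genes and letters both come from reports on ZBTB24, so the share among these 4 genes is not independent of how they were chosen. The promoters with a match are shown on GRCm38.p6 with the letters in capitals, *Cdca7* at chr2:72475969-72476218 on the plus strand, *Taf6* at chr5:138187227-138187476 on the minus strand with 2 matches, of which the first reads on the other strand, and *Cdc40* at chr10:40883144-40883393 on the minus strand, where the match reads on the other strand.
Cdca7: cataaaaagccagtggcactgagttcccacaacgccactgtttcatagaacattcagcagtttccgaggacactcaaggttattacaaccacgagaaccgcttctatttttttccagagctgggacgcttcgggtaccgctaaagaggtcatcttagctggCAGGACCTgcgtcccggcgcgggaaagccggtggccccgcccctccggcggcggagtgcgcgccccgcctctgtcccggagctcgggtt
Taf6: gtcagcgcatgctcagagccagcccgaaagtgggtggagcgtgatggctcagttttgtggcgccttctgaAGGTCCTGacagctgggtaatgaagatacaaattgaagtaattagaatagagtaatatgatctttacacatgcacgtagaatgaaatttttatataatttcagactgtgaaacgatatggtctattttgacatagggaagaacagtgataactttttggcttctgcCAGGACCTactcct
Cdc40: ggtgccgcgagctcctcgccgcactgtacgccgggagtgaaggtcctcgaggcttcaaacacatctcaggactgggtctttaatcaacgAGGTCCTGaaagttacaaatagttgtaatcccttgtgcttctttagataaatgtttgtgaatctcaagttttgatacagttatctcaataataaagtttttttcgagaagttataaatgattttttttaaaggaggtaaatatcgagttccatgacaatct

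Whether B-CKO cells respond differently was asked by setting the response beside that of control cells. In control cells 4147 genes rose and 4768 fell of 15531 tested (26.7% and 30.7%, or 57.4% called). Of the B-CKO calls 87.8% were also called in control cells in the same direction, and of the control calls 91.6% in B-CKO cells. In all 8168 genes were called in both, and 1 of them went in opposite directions, the vomeronasal receptor gene *Vmn2r84*, which was named after its values were seen and was at most 0.17 FPKM in B-CKO cells. Its B-CKO call was lost without replicate 1 or 3 of either time point (adjusted p up to 0.0963) and without replicate number 1 or 3 (0.16 and 0.154). It was also lost with the replicate block (adjusted p = 0.0824), group weights (0.139) and in 1 fit of 12 libraries (0.104). In control cells the group medians were -3.42 for immediate early genes, -2.04 for MHC class II, 2.41 for DNA replication and 1.51 for interferon-stimulated genes, beside -3.34, -2.33, 2.68 and 1.17 in B-CKO cells. Counts of calls were less alike in some groups, such as the plasma cell program with 4 higher and 3 lower of 12 in control cells (4 and 6 in B-CKO). Amino acid transport and mTORC1 had 2 and 6 of 18 (5 and 6) and activation and costimulation 4 and 5 of 15 (2 and 6). Interferon-stimulated genes had 14 and 2 of 16 in control cells (11 and 2 in B-CKO). No gene of these groups passed the test of the difference. Tested directly over the 12 libraries, the change from 0 h to 24 h differed between the genotypes in 0 of 16182 genes (0% called, smallest adjusted p = 0.58, limma), and 467 genes (2.89%) had an unadjusted p under 0.05. The 95% interval of the difference lay within 1 log2 unit either way in 9527 (95.4%) of the 9990 genes with a mean of 1 FPKM or more. With the replicate number within each time point as a block, a fit chosen after seeing the data because same-numbered libraries of both genotypes deviated together at 0 h, there were again 0 calls, and 1296 genes had an unadjusted p under 0.05. With that block and without genes under a mean of 1 FPKM, *Klf2* was the single call (difference -0.57, adjusted p = 0.0248).

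**Figure D5:**
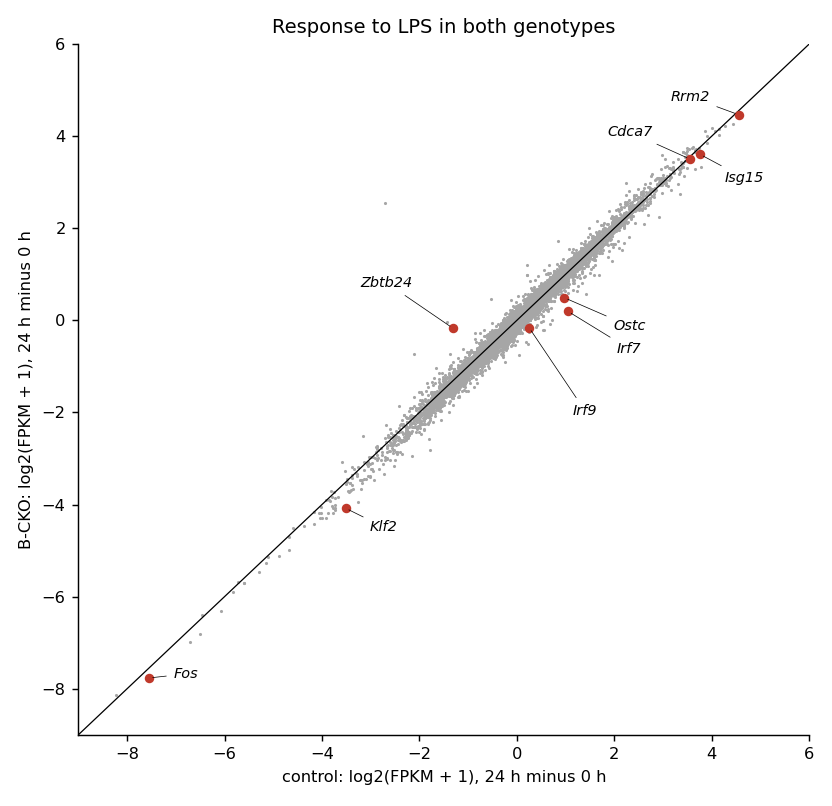
Change in log2(FPKM + 1) from 0 h to 24 h in control cells (horizontal axis) and in B-CKO cells (vertical axis) for 9990 genes of at least 1 FPKM on average; each point is a gene, the line marks equal change, and red points are genes named in the text. *Zbtb24* lies above the line (-0.17 against -1.31) and *Irf7* below it (0.19 against 1.05), while *Rrm2* and *Fos* lie close to it.

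The smallest unadjusted p for the difference belonged to *Zbtb24* itself, with a change of -1.31 in control cells and -0.17 in B-CKO cells (difference 1.14, SE 0.19, unadjusted p = 0.000117, adjusted p = 0.583). *Irf7*, a master factor of the interferon response, came next among genes above 1 FPKM. It stood at 27.2, 28.9 and 23.7 FPKM in B-CKO and at 18.2, 23.5 and 22.5 FPKM in control cells at 0 h, and at 29.6, 28.9 and 32.9 against 48.6, 43.1 and 43.9 FPKM at 24 h. Every B-CKO library was thus above every control library at 0 h and below every control library at 24 h. The difference of the changes was -0.86 (SE 0.15, unadjusted p = 0.000159, adjusted p = 0.583). *Rtp4*, another interferon-stimulated gene, rose by 1.54 in B-CKO and by 2.15 in control cells on the log2 scale (difference -0.62, unadjusted p = 0.000525, adjusted p = 0.994). It too was higher in B-CKO cells at 0 h (8.68, 6.89 and 7.16 against 5.72, 5.63 and 6.01 FPKM) and lower at 24 h (21.9, 24.2 and 25.5 against 31.0, 28.7 and 28.0 FPKM). The changes of the 16 interferon-stimulated genes that were listed had medians of 1.17 and 1.51. Their summed level was 390, 326 and 283 FPKM in B-CKO and 305, 291 and 249 FPKM in control cells at 0 h. At 24 h it was 622, 656 and 654 against 672, 661 and 623 FPKM, and the ranges overlapped at both time points. In the fit without a block, 5 of these 16 genes had an unadjusted p under 0.05 for the difference, beside 2.89% of all genes (467 genes). With replicate number within time point as a block 1296 genes did so, and the counts for single groups are not given with that block. In the MHC class II pathway 4 of 10 genes had an unadjusted p under 0.05 in the fit without a block, and none passed after adjustment. This count and that of the interferon-stimulated genes were the highest of the 42 lists, and neither was tested against the share over all genes. In the MHC class II pathway *Ciita* had a log2 change of -2.26 in B-CKO against -1.90 in control cells (difference -0.36, SE 0.12, unadjusted p = 0.0119). The other 6 genes tested in B-CKO cells among the 10 with the smallest p (*Col5a3*, *Bmp1*, *Rps23rg1*, *Tfcp2l1*, *Stk32c* and *Pllp*) were under 1 FPKM in every library of B-CKO cells.

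*Klf2* was higher in B-CKO than in control cells at 0 h on average (111% of control) and lower at 24 h (74.2%). Its log2 change was more negative in B-CKO cells, at -4.08 against -3.51 (difference -0.57, SE 0.15, unadjusted p = 0.0033). At 0 h it stood at 839.5, 1061 and 882 FPKM in B-CKO and at 787, 941 and 788 FPKM in control cells, ranges that overlap, and at 24 h at 58.9, 51.05 and 51.2 against 77.5, 67.9 and 71.6 FPKM, which do not. The difference did not pass after adjustment over all genes in the fit of 12 libraries (adjusted p = 1).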

How the data were processed

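RNA of splenic B cells, 3 replicates for control and 3 for Zbtb24 B-CKO, was sequenced at 0 h, 24 h and 48 h of LPS culture, and the 12 libraries of 0 h and 24 h were used here. The authors deposited 1 table of FPKM per gene and library with 2 decimals. The study's methods name bowtie2 on mm10 for mapping, Cufflinks for transcript abundance and RSEM for gene expression. The submitters' processing notes list BWA, Bowtie2, RSEM and DESeq2 without roles or versions. The annotation behind the FPKM is not given in the sources used here. The sources differ on the sequencer, and whether FPKM were computed from stranded reads is not given in them, so overlapping genes and near-identical copies (such as *Hba-a1* and *Hba-a2*, or ribosomal protein genes) are uncertain. Of 16545 gene IDs, 16512 were matched to RefSeq symbols and 33 kept their ID, and 0 columns of per-sample values were left unused for want of a sample.

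FPKM are not counts, so the study's DESeq2 comparison was replaced by limma (lmFit and eBayes with a trend, two-sided) on log2(FPKM + 1), with Benjamini-Hochberg adjustment over all genes above 0 FPKM in any library compared and a threshold of 0.05. A log2 change is on this scale, which understates the change of low genes. The B-CKO response used 6 libraries, and the difference of responses 12. The depth in reads is unknown, and relative depth was estimated from the steps between low FPKM values. The genes named are those of 42 lists, the 15 largest rises and falls (called, without overlap, at least 5 FPKM on average where higher), the 10 highest at each time, up to 10 with the smallest p for the difference, and the 10 with the widest range at 0 h; a few of these genes are not reported here. Members, lists and tests were chosen with earlier results of these data known. Groups came from the labels. P-values measure the spread between libraries of separate mice by the methods, which the labels do not state.

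Alternatives were a pseudocount of 0.1, a filter at a mean of 1 FPKM, rescaling to TPM, median-ratio scaling, the replicate number as a block (alone and with the filter), group weights, 1 fit of 12 libraries, and omitting single libraries or 1 replicate number at a time. Same-numbered libraries of B-CKO and control cells deviated together at 0 h (correlation of deviations from group means over 9990 genes 0.858, 0.474 and 0.795) but not all at 24 h (0.0816, 0.205 and 0.0915), so a block by number within time point was added for the difference after the data were seen. This pairing comes from the data, not the labels. Promoters were taken from RefSeq on GRCm38.p6 (32851 promoters of 27025 genes, 471 of 588 list genes matched) and searched for letters on both strands in the 250 bases before the start. Shares of groups count genes with a match in any of their promoters, and shares over all promoters count each promoter. Versions were R 4.3.3, limma 3.58.1, Python 3.11.15, numpy 2.4.6, pandas 2.3.3, scipy 1.17.1 and matplotlib 3.10.9. The authors deposited no counts that were used here.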

Additional observations from a re-analysis of the deposited data

Results flagged for a closer look

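*Klf2* differed between the genotypes in its change from 0 h to 24 h in a test of the difference itself, in 1 fit only, with replicate number within time point as a block and genes of at least 1 FPKM on average (difference -0.57, SE 0.058, limma adjusted p = 0.0248). This fit was chosen after the data were seen. Without the block and the filter the difference was the same and the adjusted p was 1. At 24 h all 3 B-CKO libraries were below all 3 control libraries (58.9, 51.05 and 51.2 against 77.5, 67.9 and 71.6 FPKM), and at 0 h the ranges overlapped.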

How the results depend on the processing

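In B-CKO cells the counts of genes higher and lower at 24 h stayed within 1.5 times of 4279 and 5027 under all alternatives, at 3742 to 4349 higher and 3793 to 5788 lower under the other scalings, filters, weights and fits, at 3851 to 4592 and 4275 to 5148 when 1 library was left out, and at 3418 to 4154 and 3979 to 4475 when 1 replicate number was left out. The control counts (4147 and 4768) also stayed within 1.5 times. The median log2 change of all genes was -0.02, and moved to -0.11 with a pseudocount of 0.1. The replicate block gave 4119 and 4792. With the 1 FPKM filter more genes rose than fell (3991 and 3838, and 3959 and 3793 with the block as well), whereas TPM gave 3742 and 5788. Whether same-numbered libraries of 0 h and 24 h came from the same mouse is not given in the sources used here. Their deviations from the group means had correlations of 0.0473, 0.0502 and 0.0412 in B-CKO cells, where each library correlated best with its own number. In control cells the correlations were 0.0459, 0.0351 and 0.0479, and replicate 2 of 0 h correlated better with replicate 3 of 24 h (0.0567). The main fit did not treat same-numbered libraries as pairs. Of 212 named genes that were called, the block lost the call of 3, TPM of 5, and 13 lost it in at least 1 fit without 1 library. Without replicate number 1, 2 or 3, which leaves 2 libraries a group, 9, 21 and 21 lost it. Of 28 named genes that were not called, 16 were called in at least 1 fit without 1 library.

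The difference of responses gave 0 calls in either direction, 0 to 2 higher and 0 to 1 lower when 1 library or number was left out. The genes called there were *Vcam1* (without replicate 1 of B-CKO 0 h), *Msmp* and *Ssxb8* (without replicate 1 or 3 of B-CKO 24 h), *Spata45* (without control replicate 1 of 0 h), *Xlr5a* and *Ifitm6* (without control replicate 2 of 0 h), *Rps27rt* (without replicate number 1) and *Gng13* (without number 3), all but *Vcam1* and *Rps27rt* under 1 FPKM in every library. With the block within time point and the 1 FPKM filter there was 1 call, lower. For *Zbtb24* the log2 difference between genotypes was -1.78 at 0 h and -0.64 at 24 h and passed only with the 1 FPKM filter, where fewer genes were tested, and adjusted p was 0.114 to 0.838 and 0.0646 to 0.232 without 1 library (0.689 and 0.126 with the replicate block).

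A few values that did not pass changed sign, and apart from the effect of library totals on TPM the cause was not tested. The FPKM of the B-CKO libraries summed to 457954 to 472676 at 0 h and to 521350 to 526457 at 24 h. TPM sets these totals equal, which lowers the values of 24 h against those of 0 h and bears on all small changes. Rescaled to TPM, the B-CKO change was -0.0916 for *Cxcr5*, -0.0839 for *Rps9* and -0.16 for *Vars* (-0.0338 for *Vars* with median-ratio scaling). Without 1 library or number the change ran from -0.0155 to 0.23 for *Cxcr5*, -0.0439 to 0.0938 for *Vars*, -0.24 to 0.0035 for *Ms4a1*, -0.0504 to 0.54 for *Tlr4* and -0.35 to 0.28 for *Tnfrsf13c*. The difference of responses of *Cdca7* was 0.61 with a pseudocount of 0.1, 0.27 with TPM and -0.19 to 0.14 without 1 library or number. FPKM with 2 decimals set a limit on low genes, and no interval from reads can be given.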

Other observations

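Of the GIMAP GTPases, which support lymphocyte survival, 37.5% were called in B-CKO cells, beside 59.8% of all genes. The difference between these shares was not tested. Of 8 genes 2 fell and 1 rose, with a median log2 change of 0.06. *Gimap6* stood at 404, 321 and 319 FPKM at 0 h and at 156, 149 and 152 FPKM at 24 h, a log2 change of -1.18, and *Gimap4* at 224, 131 and 119.9 FPKM at 0 h and at 262, 265 and 262 FPKM at 24 h, a log2 change of 0.79 whose call was lost when any 1 library was left out except replicate 1 of 0 h (adjusted p up to 0.083). Without replicate 1 of 0 h 5 genes of the family rose.

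*Rps27rt*, a near copy of the ribosomal protein gene *Rps27*, was listed at 0 in 8 of the 12 libraries and at 13.1 to 16.1 FPKM in the other 4. These were replicates 2 and 3 of B-CKO cells at 24 h (13.1 and 13.2 FPKM) and replicates 2 and 3 of control cells at 0 h (15.5 and 16.1 FPKM). *Rps27* itself stood at 1494 to 3455 FPKM in the same 12 libraries. The deposited values do not say how reads common to both genes were divided, and *Rps27rt* is the unlabelled point far from the line in the plot of both genotypes' changes.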
